A study of Mus musculus with 24 samples.

Results

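The data compared here are the resting transcriptomes of 2 kinds of mouse macrophage, bone marrow-derived macrophages (BMDMs) and cells of the RAW264.7 line. Members were chosen as the wild-type libraries given PBS only, 3 of BMDMs and 3 of RAW264.7 cells, which make 6 of the 24 libraries in the series. The series was made to follow Olfml3, the gene of a secreted glycoprotein, in macrophages under lipopolysaccharide (LPS, a component of Gram-negative bacterial envelopes). By the study's methods, RNA with poly(A) tails was drawn from total RNA with oligo(dT) beads and sequenced. For each cell type 1 table of read counts and FPKM (fragments counted per kilobase of a gene and scaled by library total) was deposited. The BMDMs came from marrow of male C57BL/6 mice aged 8 weeks. Marrow cells were differentiated for 6 days with 20% supernatant of L929 cells, which is a source of colony-stimulating factor 1, and 10% fetal bovine serum. RAW264.7 cells are a line from a tumour that Abelson virus induced in a male BALB/c mouse, and they were grown with 10% fetal bovine serum. Tags give all 6 libraries as wild type with PBS, titles call them control, and none had LPS (0 h, 0 ng/mL). The comparison asks which genes differ strongly between a primary macrophage and a macrophage-like line at rest. Cell type, mouse strain, culture and table differ together between the groups, so their parts cannot be told apart, and the text reads large differences only.

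Macrophages arise from marrow progenitors under colony-stimulating factor 1, whose receptor is Csf1r, and under transcription factors such as PU.1 (Spi1), the C/EBP factors and Maf. They take up microbes and dying cells through Fc, complement, scavenger and lectin receptors, degrade them in lysosomes, and show fragments to T cells on major histocompatibility complex (MHC) molecules. A tumour line grows without limit.

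Total counts were 22256133, 21881039 and 21947208 in BMDM libraries 1 to 3 and 13353995, 16142555 and 13145037 in RAW264.7 libraries 1 to 3. Values of 3 libraries are given in that order throughout. With 0 counts on a gene, the limit of 3 counts allows a share of up to 1.35e-05 to 1.37e-05% of a BMDM library and 1.86e-05 to 2.28e-05% of a RAW264.7 library. Such limits and the intervals given with folds cover counting error only. FPKM was scaled by the total of each library in both tables, while fold changes come from counts scaled across libraries together. Ratios of FPKM therefore differ from fold changes, and levels set side by side across cell types still come from separate tables. Pearson correlations of log2 CPM (counts scaled to library size) between libraries, across 13912 genes that are not independent replicates, were 0.998 within BMDMs, 0.997 within RAW264.7 cells and 0.743 to 0.748 between them. The study calls its replicates biological, while the labels do not say whether the libraries of a group come from separate mice or cultures. The p-values measure only the spread between these samples.

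Of 56691 genes in the tables, 13912 had enough counts to be tested. At the study's thresholds (adjusted p below 0.05, with a minimum of 1.5-fold), 9967 genes (71.6%) differed, 5154 higher in BMDMs and 4813 higher in RAW264.7 cells. A large difference needed an adjusted p below 0.05, at least 4-fold, and all 3 libraries of one cell type above all 3 of the other. There were 4052 such genes (29.1% of those tested), of which 2381 (17.1%) were higher in BMDMs and 1671 (12%) higher in RAW264.7 cells. The split depends on scale, with 1975 higher in BMDMs and 2320 in RAW264.7 cells with library totals alone, and 1643 and 2040 with limma on log2(FPKM + 0.1). A gene at or near 0 in one cell type could be tested only through its counts in the other, so its direction was set by the filter. Counts of list members at rest stand against the shares above and, unless the study's thresholds are named, count large differences only. The median log2 fold change, always BMDM over RAW264.7, was 0.05. It was -0.15 with upper-quartile scaling and -0.37 with library totals alone, the scale of the deposited FPKM, so fitted fold changes lie above ratios of FPKM by about that shift.

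Many genes of uptake, complement and lysosomes were higher in BMDMs, and many genes of mitosis were higher in RAW264.7 cells. The complement gene C1qb (ENSMUSG00000036905), which codes for a chain of the C1q recognition molecule, stood at 1381, 1424 and 1348 FPKM in BMDMs and 0, 0 and 0 in RAW264.7 cells. Mycn (ENSMUSG00000037169), an oncogene of the Myc family, stood at 276, 288 and 299.6 FPKM in RAW264.7 cells and 0, 0 and 0 in BMDMs. Neither gene had 1 count in the other cell type. C1qb was at least 28487-fold higher in BMDMs and Mycn at least 15698-fold higher in RAW264.7 cells, with the floor of 3 counts taken over the 3 libraries of the empty group.

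**Figure D1:**
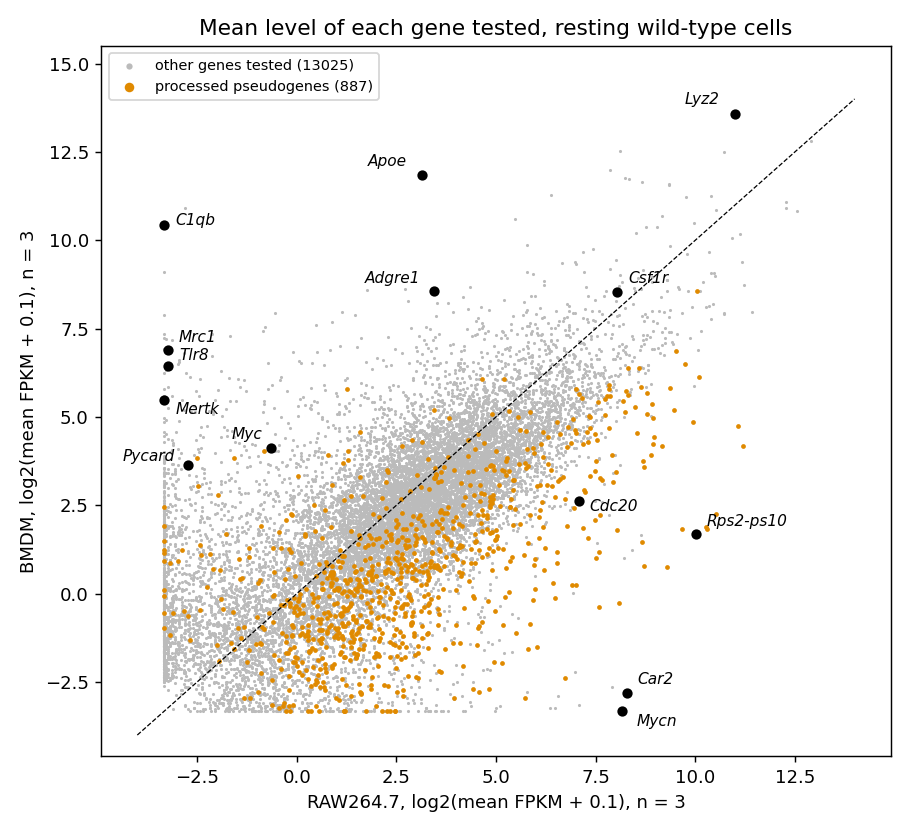
Mean level of each gene tested in resting wild-type RAW264.7 cells (x axis) and BMDMs (y axis), as log2 of mean FPKM plus 0.1, with n = 3 libraries per cell type. Each point is a gene, processed pseudogenes (887) are orange, the dashed line marks equal levels, and named genes are black. C1qb, Mrc1, Tlr8 and Mertk lie at the left edge, Mycn and Car2 at the bottom.

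Both groups carried the defining genes of macrophages, with exceptions in the line. All 18 macrophage core genes were tested, with a median log2 fold change of 2.42. By the large-difference rule 10 were higher in BMDMs and 0 higher in RAW264.7 cells. With library totals alone 9 and 1 were. At the study's thresholds 15 were higher in BMDMs and 2 in RAW264.7 cells. Csf1r, the receptor that keeps macrophages alive, stood at 374, 367 and 375 FPKM in BMDMs and 254, 268 and 267 in RAW264.7 cells, a log2 fold change of 0.91. Spi1, which encodes PU.1, the factor that commits cells to the myeloid line, stood at 144, 151 and 150.5 FPKM in RAW264.7 cells and 81.8, 84.1 and 80.8 in BMDMs. Its log2 fold change of -0.44 did not reach 1.5-fold. Cd68, a lysosomal glycoprotein of macrophages, and Tyrobp, the adaptor DAP12, were high in both, at 1664, 1689 and 1614 FPKM in BMDMs and 577, 585 and 572 in RAW264.7 cells and at 908, 928 and 906 FPKM in BMDMs and 661, 664 and 672 in RAW264.7 cells.

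Other core genes set the cells apart. Adgre1, which encodes the F4/80 antigen used to mark mouse macrophages, stood at 386, 381 and 379 FPKM in BMDMs and 10.6, 11.1 and 10.5 in RAW264.7 cells, and edgeR gave a log2 fold change of 5.56 (SE 0.036, Benjamini-Hochberg adjusted p = 1.39e-57), higher in 3 of 3 BMDM libraries. Mertk, a receptor for the uptake of dying cells, stood at 46.2, 44 and 43.9 FPKM in BMDMs and 0, 0 and 0 in RAW264.7 cells, at least 3667-fold higher. Maf, a transcription factor of resident macrophages, had 1 count in the line and levels of 80, 79.1 and 81.4 FPKM in BMDMs, a fold of 37489 (95% counting interval 6728 to 1480770). No BMDM library overlapped a RAW264.7 library for any of these 3 genes. The libraries were likewise apart for 12484 of all 13912 genes tested, so being higher in 3 of 3 libraries is common here. Cd14, the LPS co-receptor, and Cebpb, a factor of the inflammatory response, were the 2 core genes higher in the line at the study's thresholds. Cd14 stood at 457, 448 and 429.8 FPKM in RAW264.7 cells and 162, 157 and 159.6 in BMDMs (log2 fold change -1.07) and Cebpb at 41.6, 50.2 and 51.3 FPKM in RAW264.7 cells and 10.5, 11.8 and 12.7 in BMDMs (-1.62). Lyz2, lysozyme, was the most abundant core gene in both cell types, but 15.4% of its 50-base windows occur in another gene and its level is uncertain. Itgam, the CD11b integrin chain, has 66.3% of its windows in another gene, and its log2 fold change of 3.36 is uncertain too.

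**Figure D2:**
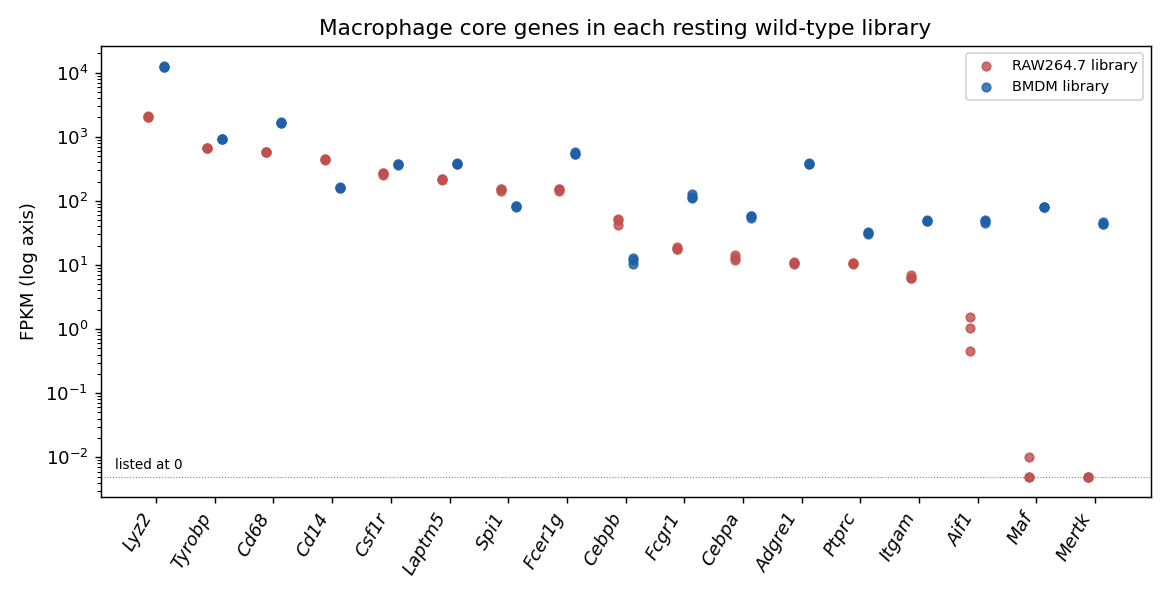
FPKM of 17 macrophage core genes in each resting wild-type library, on a log axis, with 1 point per library and 3 libraries per cell type. Csf1r, Spi1, Tyrobp and Laptm5 lie close together in both cell types, while Mertk and Maf lie at or near 0 in RAW264.7 cells.

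Markers of other cell types were mostly at or near 0. Of 8 T cell markers, Cd3d, Cd3e, Cd3g, Cd8a, Cd8b1 and Cd5 had too few counts to be tested, and the list summed to 54.9, 53.7 and 52 FPKM in BMDMs. Nearly all of the BMDM sum was Cd28, a costimulatory receptor of T cells, at 54.8, 53.4 and 51.8 FPKM in BMDMs and 0.05, 0.08 and 0.09 in RAW264.7 cells. Lck, a T cell kinase named after its value was seen, was the member higher in the line, where it was the most abundant of the list, at 0.77, 0.91 and 1.3 FPKM against 0.02, 0.09 and 0.12 in BMDMs. Outside the list and named after their values were seen, Cd4 and the T cell receptor segments Trav14-3 and Trav13-4-dv7 were counted in BMDMs alone. Their means there were 8.01, 8.36 and 8.17 FPKM. Of 8 erythroid and megakaryocyte markers 1 was tested, Pf4, the chemokine platelet factor 4, at 72.5, 73.7 and 79 FPKM in BMDMs and 0, 0 and 0 in RAW264.7 cells, and the haemoglobin genes were not. None of 8 NK cell and none of 6 mast cell and basophil markers had enough counts. Of 8 B cell markers 1 was tested, Cd79b, a chain of the B cell receptor complex, at 0.94, 1.37 and 1.37 FPKM in BMDMs and 0.1, 0.04 and 0.05 in RAW264.7 cells.

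Markers of cells close to macrophages were low too. The 8 monocyte markers summed to 8.74, 8.38 and 9 FPKM in BMDMs and 0.28, 0.39 and 0.3 in the line, with 4 tested. F13a1, coagulation factor XIII A, led them at 4.02, 3.74 and 3.7 FPKM in BMDMs and 0, 0 and 0 in RAW264.7 cells. Neutrophil and granule markers summed to 6.34, 5.71 and 7.21 and 0.32, 0.59 and 0.22 FPKM in BMDMs and the line, an order kept for the next lists, with 3 of 12 tested, S100a8, S100a9 and Ngp. The 8 dendritic cell markers summed to 0.42, 0.53 and 0.65 and 1.48, 1.37 and 1.44 FPKM. Of them 2 were tested, with no large difference, though 1 was large in the line with library totals alone. Flt3, Xcr1 and Clec9a were among the members not tested. Fibroblast and stroma markers summed to 1.27, 1.44 and 1.1 and 0, 0.3 and 0 FPKM, with 3 of 8 tested, all of them collagens. Of 6 endothelial markers, which summed to 9.98, 9.62 and 9.71 and 0.18, 0.07 and 0 FPKM, 3 were tested, led by Vwf, von Willebrand factor, at 8.81, 8.43 and 8.56 FPKM in BMDMs and 0.01, 0 and 0 in RAW264.7 cells. The part of other cells in the values was not tested, and fewer cells of a type and less RNA per cell cannot be told apart in bulk libraries.

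RAW264.7 cells can form osteoclasts, the bone-resorbing relatives of macrophages. Of 7 osteoclast genes tested 4 were higher in BMDMs and 1 higher in the line, with a median log2 fold change of 2.21. At the study's thresholds 4 were higher in BMDMs and 3 in the line. With library totals alone the large differences were 3 in BMDMs and 2 in the line. Atp6v0d2, a proton pump subunit needed for cell fusion, stood at 114, 112 and 118 FPKM in BMDMs and 1.49, 1.3 and 1.18 in RAW264.7 cells. Ocstamp, a transmembrane protein of osteoclast fusion, was the one member past 4-fold in the line, at 2.21, 3.05 and 2.66 FPKM in RAW264.7 cells and 0.18, 0.07 and 0.1 in BMDMs. The list summed to 134, 131 and 137 FPKM in BMDMs and 41, 40.1 and 41.4 in RAW264.7 cells.

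Among 38 lineage transcription factors tested, 19 were higher in BMDMs and 1 higher in the line, with a median log2 fold change of 2.02. With library totals alone 17 and 3 were. Maf, described with the core genes, was among the first. Pparg, a nuclear receptor that governs lipid genes, stood at 23.5, 21.1 and 23.1 FPKM in BMDMs and 0.1, 0.06 and 0.1 in RAW264.7 cells. Spic, a factor of iron-recycling macrophages of the spleen, stood at 2.52, 2.11 and 1.99 FPKM in BMDMs and 0, 0 and 0 in RAW264.7 cells, at least 160.3-fold higher in BMDMs. Cebpa, a factor of myeloid differentiation, differed less, with 54.4, 58.2 and 57.4 FPKM in BMDMs and 14.3, 12.1 and 12.8 in RAW264.7 cells and a log2 fold change of 2.53. Cebpe, a granulocyte factor named after its value was seen, was the member past 4-fold in the line, at a mean of 1.58 against 0.0967 FPKM.

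Of 12 colony-stimulating factor (CSF) ligands and receptors, 8 were tested and 6 were higher in BMDMs. The others tested, Csf1r and the GM-CSF receptor chain Csf2ra (log2 fold change 1.14), differed by less than 4-fold. Il3ra, the interleukin 3 receptor chain, stood at 11.5, 12 and 11.7 FPKM in BMDMs and 0, 0 and 0 in RAW264.7 cells. Csf1, the ligand of Csf1r, stood at 7.16, 8.69 and 7.05 FPKM in BMDMs and 0.04, 0.11 and 0.03 in RAW264.7 cells, a low level beside its receptor. Csf2rb2, Csf3r and Csf2rb share sequence with other genes, and their log2 fold changes of 7.94, 6.26 and 4.55 are uncertain. Kit, the stem cell factor receptor, had 3 counts in the line and stood at 0.45, 0.48 and 0.47 FPKM in BMDMs, a fold of 78.1 (95% counting interval 26.5 to 381). The ligands Csf2, Csf3 and Il34 and the receptor Flt3 had at most 2 counts in either group and no fold is given.

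Uptake receptors were mostly higher in BMDMs. Of 29 scavenger and phagocytic receptors tested, 21 were higher in BMDMs and 2 in the line, with a median log2 fold change of 4.42. Mrc1, the mannose receptor, had 2 counts in the line and levels of 124, 114 and 121 FPKM in BMDMs, a fold of 21663 (95% counting interval 5997 to 178884). Stab1, a scavenger receptor of alternatively activated macrophages, stood at 94.2, 90.5 and 96.7 FPKM in BMDMs and 0.01, 0.06 and 0.02 in RAW264.7 cells. Cd5l, a secreted scavenger protein, stood at 163, 166 and 156 FPKM in BMDMs and 0.18, 0.06 and 0.15 in RAW264.7 cells. Clec5a, a lectin receptor, and Colec12, a scavenger receptor, both named after their values were seen, were the 2 past 4-fold in the line. Their log2 fold changes were -2.00 and -2.71, so Clec5a lies at the limit. With RLE scaling, another way to scale counts, only 1 member was past 4-fold in the line.

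All 6 genes of the Fc gamma receptor list, which holds receptors for antibody-coated particles, their signalling chain and the neonatal receptor that recycles antibody, were higher in BMDMs by the large-difference rule, with a median log2 fold change of 5.00. With library totals alone 5 were, and 5 were in the knockout-labelled libraries with PBS. Fcgr4 stood at 43.4, 46 and 42.1 FPKM in BMDMs and 0.24, 0.2 and 0.3 in RAW264.7 cells, and Fcgr3, the low-affinity receptor CD16, at 236, 239.8 and 235 FPKM in BMDMs and 3.02, 2.75 and 2.23 in RAW264.7 cells. The inhibitory receptor Fcgr2b stood at 39.7, 37.5 and 37.2 FPKM in BMDMs and 1.16, 1.22 and 1.09 in RAW264.7 cells. Fcer1g, the shared signalling chain, was high in both cell types and differed least in the list, at 543, 569 and 539 FPKM in BMDMs and 151, 141 and 152 in RAW264.7 cells.

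Of 14 complement genes tested, 10 were higher in BMDMs and 0 in the line, with a median log2 fold change of 5.45. The 3 chains of C1q were alike. C1qa stood at 232, 240.2 and 236 FPKM and C1qc at 541, 573 and 548 in BMDMs, and neither had a count in RAW264.7 cells, so the folds are at least 4645 and 20228. C5ar1, the receptor for the anaphylatoxin C5a, stood at 195, 195 and 198 FPKM in BMDMs and 1.46, 1.49 and 0.95 in RAW264.7 cells. C1ra did not differ at the study's thresholds.

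Of 13 MHC class II presentation genes tested, 10 were higher in BMDMs and 1 in the line, with a median log2 fold change of 4.68. H2-Aa, a chain of the class II molecule I-A, stood at 15, 14.4 and 13.7 FPKM in BMDMs and 0, 0 and 0 in RAW264.7 cells, at least 1031-fold higher. H2-Eb1, a chain of I-E, had 2 counts in the line against 17.8, 17.6 and 15.8 FPKM, a fold of 942 (95% counting interval 261 to 7785). Cd86, a costimulatory ligand for T cells, had 1 count in the line and stood at 7.81, 8.43 and 7.32 FPKM in BMDMs, a fold of 1630.4 (95% counting interval 292 to 64431). Cd74, the invariant chain, did not differ at the study's thresholds (log2 fold change -0.56). Ifi30, a lysosomal thiol reductase named after its value was seen, was the member higher in the line, with a log2 fold change of -2.54. H2-DMb1 shares 22.7% of its windows and is uncertain.

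Of 21 MHC class I presentation genes tested, 9 were higher in BMDMs and 2 in the line, with a median log2 fold change of 1.59. At the study's thresholds 14 were higher in BMDMs and 2 in the line. H2-K1, a heavy chain of class I, stood at 292, 318 and 293 FPKM in BMDMs and 12, 9.78 and 12.1 in RAW264.7 cells. B2m, the light chain of class I, had a log2 fold change of 2.63. H2-Q1 and H2-Q10 were the 2 higher in the line, and H2-Q1, H2-T22 and H2-T23 share sequence with other genes and are uncertain. The submitters' notes name mm10, an assembly of the C57BL/6J strain, whereas RAW264.7 cells derive from BALB/c. Strain and cell type cannot be told apart for these polymorphic genes.

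Sensors of microbes were higher in BMDMs in part. Of 26 Toll-like receptor signalling genes tested, 11 were higher in BMDMs and 0 in the line (median 1.59). Tlr8, an endosomal sensor of RNA, had 1 count in the line and levels of 90.4, 86.2 and 86.3 FPKM in BMDMs, a fold of 17837 (95% counting interval 3201 to 704539). Tlr13, which senses bacterial ribosomal RNA, stood at 159, 157 and 155 FPKM in BMDMs and 8.75, 8.06 and 7.95 in RAW264.7 cells, and Tlr9, the sensor of unmethylated DNA, at 16.5, 16.9 and 15.7 FPKM in BMDMs and 1.12, 1.41 and 1.27 in RAW264.7 cells. Tlr4, the LPS receptor, was outside the rule for naming and is given after its value was seen, with a mean of 33.5 FPKM in BMDMs against 4.71 in the line. Myd88 did not differ at the study's thresholds (log2 fold change -0.16).

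The inflammasome list, of the activation of caspase 1 and of the cytokines and pore formers that act with it or after it, held 20 tested genes, of which 10 were higher in BMDMs and 0 in the line (median 2.05). Pycard encodes ASC, the adaptor that joins sensors to caspase 1, and RAW264.7 cells are known to lack it. It stood at 12.5, 12.7 and 12 FPKM in BMDMs and 0.1, 0.03 and 0.02 in RAW264.7 cells, a log2 fold change of 8.32 (SE 0.169). Mefv, the pyrin gene, stood at 1.15, 1.05 and 1.18 FPKM in BMDMs and 0, 0 and 0 in RAW264.7 cells, at least 69.3-fold higher, and Il1a, interleukin 1 alpha, at 2.05, 2.18 and 1.62 FPKM in BMDMs and 0, 0.13 and 0.19 in RAW264.7 cells. Nlrp3, named after its value was seen, differed by less than 4-fold (log2 fold change 0.88), and Gsdmd, the pore-forming gasdermin, was not past 1.5-fold.

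Of 44 interferon-stimulated genes tested, 31 were higher in BMDMs and 3 in the line, with a median log2 fold change of 3.60. Mx1, an antiviral GTPase, had 2 counts in the line and stood at 12.5, 14.4 and 11.2 FPKM in BMDMs. In the knockout BMDMs with PBS Mx1 stood at 2.41, 2.44 and 2.02 FPKM, and all 3 wild-type values lie above all 3 of these. The knockout-labelled comparison gave 26 interferon-stimulated genes higher in BMDMs and 3 in the line, where 15% and 9.91% of all genes tested were. Ifi205 and Ifi211, DNA-binding proteins of one family, stood at 2.41, 2.86 and 2.59 and 42, 50.2 and 42.7 FPKM in wild-type BMDMs and share 18.6% and 72.8% of their windows with other genes, so both are uncertain.

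Of 21 chemokine and chemokine receptor genes tested, 13 were higher in BMDMs and 1 in the line (median 3.99). Ccl7, a monocyte attractant, had 1 count in the line and stood at 95.1, 104 and 95 FPKM in BMDMs, a fold of 4451 (95% counting interval 798 to 175829). Ccl2, another monocyte attractant, stood at 110.2, 121 and 111 FPKM in BMDMs and 0.53, 1.31 and 0.67 in RAW264.7 cells. Ccr1, a receptor for inflammatory chemokines, stood at 35.3, 37.4 and 36.2 FPKM in BMDMs and 0.03, 0.04 and 0.05 in RAW264.7 cells, and Ccr3 at 10.7, 10.6 and 10.2 FPKM in BMDMs and 0, 0 and 0 in RAW264.7 cells. Cx3cr1, the fractalkine receptor, named after its value was seen, was the one member higher in the line, at a mean of 76.3 against 3.97 FPKM.

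Of 26 cytokine and cytokine receptor genes tested, 12 were higher in BMDMs and 0 in the line (median 1.76). Tgfbi, a matrix protein induced by transforming growth factor beta, stood at 29.1, 27.4 and 30.4 FPKM in BMDMs and 0, 0 and 0 in RAW264.7 cells, at least 2066-fold higher. Tnfrsf1b, a receptor of tumour necrosis factor, stood at 127, 125 and 128 FPKM in BMDMs and 2.14, 3.03 and 3.13 in RAW264.7 cells, while the cytokine itself, Tnf, was higher in the line by less than 4-fold, at 49.2, 45.8 and 46.5 FPKM in RAW264.7 cells and 14.8, 17 and 15.8 in BMDMs (log2 fold change -1.16). Il4ra, a chain of the interleukin 4 receptor, stood at 19, 19.1 and 18.3 FPKM in BMDMs and 0.29, 0.44 and 0.34 in RAW264.7 cells. Of 7 alternative activation genes tested, 6 were higher in BMDMs and 1, Flt1 (named after its value was seen), in the line, with a median of 5.59 or 5.38 with genes without counts at their bound.

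Of 25 lysosome and protease genes tested, 17 were higher in BMDMs and 0 in the line, with a median log2 fold change of 2.74. At the study's thresholds 22 were higher in BMDMs and 2 in the line. Psap, prosaposin, the precursor of proteins that help degrade sphingolipids, stood at 5881, 5892 and 5774 FPKM in BMDMs and 277, 279 and 274 in RAW264.7 cells. Ctsb and Ctss, cathepsin proteases, stood at 3501, 3486 and 3498 FPKM in BMDMs and 304, 304 and 301 in RAW264.7 cells and at 3177, 3265 and 3164 FPKM in BMDMs and 404, 412 and 402 in RAW264.7 cells. Gpnmb, a glycoprotein of lysosomes, stood at 2471, 2524 and 2429 FPKM in BMDMs and 82.3, 84.3 and 84.5 in RAW264.7 cells, and Ctsh, another cathepsin, at 77.7, 79.5 and 77 FPKM in BMDMs and 0.1, 0.18 and 0.22 in RAW264.7 cells. Ctsd, with 32.4% of its windows in another gene, is uncertain.

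Of 28 lipid handling genes tested, 17 were higher in BMDMs and 3 in the line (median 2.69). With library totals alone 16 and 4 were. Apoe, apolipoprotein E, a carrier of cholesterol out of macrophages, stood at 3678, 3729 and 3589 FPKM in BMDMs and 8.72, 9.47 and 8.11 in RAW264.7 cells, and edgeR gave a log2 fold change of 9.11 (SE 0.0399, Benjamini-Hochberg adjusted p = 9.8e-64), higher in 3 of 3 BMDM libraries. Abca1, which moves cholesterol to lipoproteins, stood at 107, 103 and 105 FPKM in BMDMs and 0.09, 0.17 and 0.13 in RAW264.7 cells. In contrast, of 23 cholesterol synthesis genes tested 0 were higher in BMDMs and 4 in the line, with a median of -1.21. The 4 are 17.4% of the list, against 12% of all genes tested. At the study's thresholds 13 were higher in the line and 0 in BMDMs, where 4813 and 5154 of all 13912 genes tested were. With upper-quartile scaling 6 were past 4-fold in the line, and with library totals alone 7. Mvd, which makes isopentenyl diphosphate, stood at 75.7, 72.5 and 66.9 FPKM in RAW264.7 cells and 6.09, 6.22 and 5.32 in BMDMs, and Lss, which forms lanosterol, at 17.2, 18 and 17.7 FPKM in RAW264.7 cells and 1.74, 1.75 and 1.62 in BMDMs. Fdps shares 26.2% of its windows with another gene and is uncertain.

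Of 19 matrix protease and urokinase genes tested, 13 were higher in BMDMs and 1 in the line. With library totals alone 13 and 2 were. The median was 6.29, or 4.17 with genes without counts at their bound. Mmp12, macrophage elastase, had 2 counts in the line and stood at 37.7, 37.6 and 39.3 FPKM in BMDMs, a fold of 7843 (95% counting interval 2171 to 64770). Mmp14, a membrane protease, stood at 5.47, 5.75 and 5.49 FPKM in BMDMs and 0, 0 and 0 in RAW264.7 cells, at least 628-fold higher. Timp1, an inhibitor of these proteases named after its value was seen, was the member past 4-fold in the line (log2 fold change -2.46). Of 23 integrin and adhesion genes tested, 13 were higher in BMDMs and 1 in the line (median 2.17). Itgax, the CD11c chain, stood at 10.1, 10.7 and 10.7 FPKM in BMDMs and 0.12, 0.1 and 0.08 in RAW264.7 cells.

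Iron handling held 12 tested genes, of which 5 were higher in BMDMs and 0 in the line (median log2 fold change 1.421). Slc40a1, ferroportin, the exporter of iron from cells, stood at 71.7, 63.6 and 71.7 FPKM in BMDMs and 0.2, 0.23 and 0.2 in RAW264.7 cells. Slc11a1, a metal transporter of phagosomes, stood at 70.1, 68.5 and 70.2 FPKM in BMDMs and 9.6, 8.76 and 8.4 in RAW264.7 cells. Of 21 genes of oxidants, arginine and itaconate, 4 were higher in BMDMs and 0 in the line, with a median of 0.57. The share of 19% is near the 17.1% of all genes tested, and with library totals alone 3 were higher in BMDMs. Hmox1, haem oxygenase, and Cybb, a subunit of the NADPH oxidase, stood at 231, 219 and 243 FPKM in BMDMs and 45.1, 43.9 and 40.7 in RAW264.7 cells and at 221, 229 and 218 FPKM in BMDMs and 72.8, 70.6 and 71.5 in RAW264.7 cells.

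**Figure D3:**
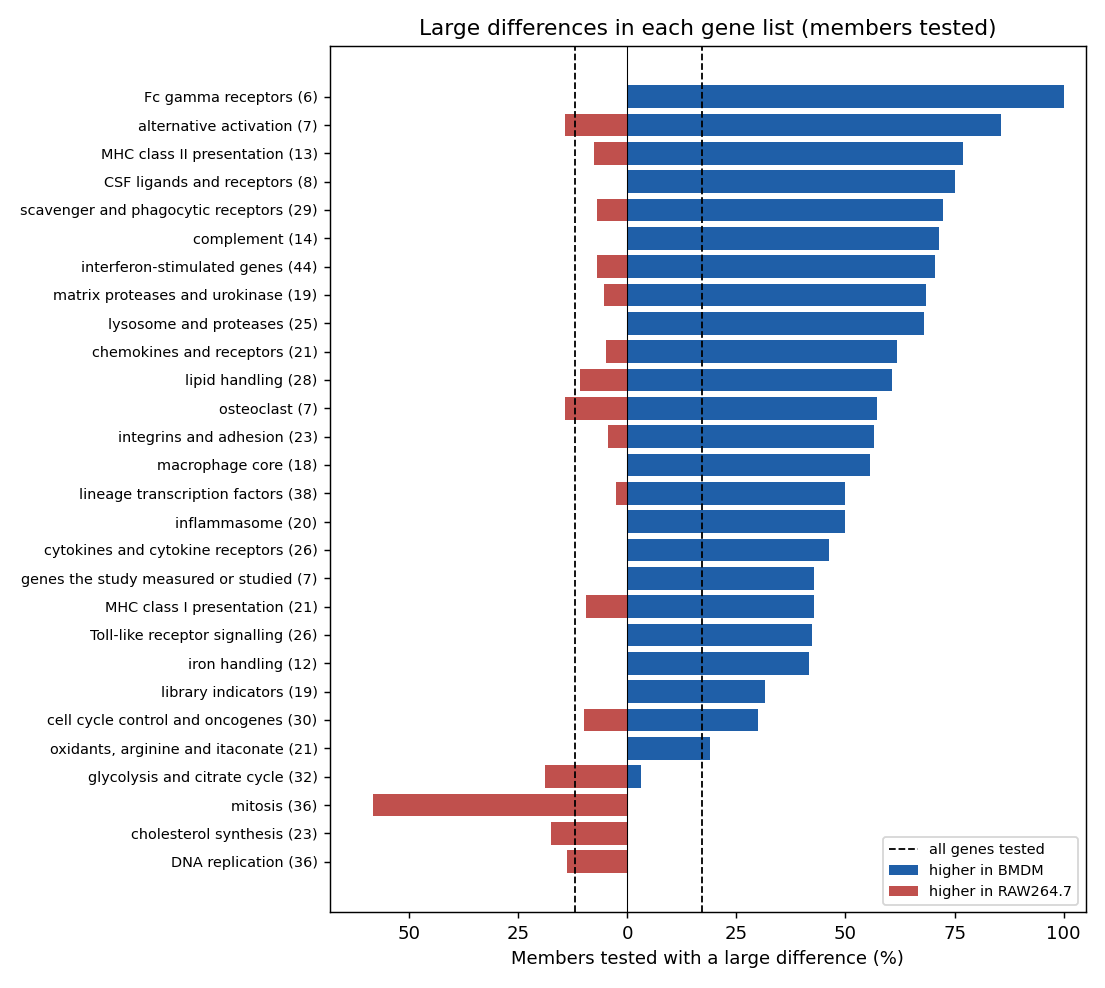
Share of the tested members of each gene list with a large difference, in percent, for 28 lists. Bars to the right are members higher in BMDMs and bars to the left members higher in RAW264.7 cells. Mitosis is the list with the longest bar to the left (58.3%).

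Mitosis was the list most often higher in RAW264.7 cells. All 36 genes were past the study's thresholds in that direction, 21 by the large-difference rule, with a median log2 fold change of -2.19. Aurka, a spindle kinase, stood at 73.1, 77.3 and 76.7 FPKM in RAW264.7 cells and 6.85, 6.37 and 6.79 in BMDMs, and edgeR gave a log2 fold change of -3.09 (SE 0.05, Benjamini-Hochberg adjusted p = 3.44e-42), higher in 3 of 3 RAW264.7 libraries. Ube2c, a ubiquitin-conjugating enzyme of mitotic exit, stood at 107, 109.7 and 111 FPKM in RAW264.7 cells and 6.74, 6.87 and 7.96 in BMDMs. Cdc25c, a phosphatase that starts mitosis, stood at 10.5, 10.1 and 9.57 FPKM in RAW264.7 cells and 0.7, 0.72 and 0.75 in BMDMs. Mitotic transcripts were present in BMDMs too, at the levels given. In the knockout-labelled libraries with PBS 5 of the 36 were higher in the line by the large-difference rule, a share near the 9.91% of all genes tested there. In the wild-type libraries with LPS 31 were, against 16.4% of all genes. Aurka stood at 11.1, 10.4 and 12.8 FPKM in knockout BMDMs, at 69, 55 and 58.4 in RAW264.7 cells labelled knockout and at 0.56, 0.5 and 0.6 in wild-type BMDMs with LPS, and the difference between genotypes was not tested here. Cdc20, with 10.4% of its windows in another gene, is uncertain.

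Of 36 DNA replication genes, 30 were past the study's thresholds in favour of the line and 1 in favour of BMDMs. Of all 13912 genes tested, 4813 were so in favour of the line. Only 5 of the 36 reached 4-fold, and the median was -1.36. The 5 are 13.9% of the list, near the 12% of all genes tested. With upper-quartile scaling 8 reached 4-fold, and with library totals alone 11. Tk1, thymidine kinase, stood at 47.3, 47.7 and 47.1 FPKM in RAW264.7 cells and 5.43, 5.5 and 5.96 in BMDMs, and Gins3, a subunit of the replication helicase, at 29.3, 30.3 and 29.8 FPKM in RAW264.7 cells and 2.99, 3.02 and 3.55 in BMDMs. Of 32 glycolysis and citrate cycle genes tested, 6 were higher in the line and 1 in BMDMs, with a median of -0.79. With library totals alone 9 and 1 were. Ldha, lactate dehydrogenase, stood at 962, 937 and 907 FPKM in RAW264.7 cells and 146, 151 and 151 in BMDMs, whereas Hk3, a hexokinase of myeloid cells, was the one past 4-fold in BMDMs, at 87.9, 88.9 and 88.2 FPKM in BMDMs and 11.3, 12.2 and 11.2 in RAW264.7 cells. Pkm shares 25.8% of its windows and is uncertain.

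Of 30 cell cycle control genes and oncogenes tested, 9 were higher in BMDMs and 3 in the line (median 0.97). With library totals alone the split was 5 and 5, with a median of 0.56. The Myc family divided between the cells. Mycn was counted in the line alone, and Myc stood at 17.2, 16.9 and 17.7 FPKM in BMDMs and 0.47, 0.66 and 0.5 in RAW264.7 cells, a log2 fold change of 5.37. Cdkn1c, an inhibitor of cyclin-dependent kinases, stood at 1.01, 1.37 and 1.61 FPKM in BMDMs and 0, 0 and 0 in RAW264.7 cells, at least 51.2-fold higher in BMDMs. Bcl2l11, which encodes the death-promoting protein BIM, stood at 21.6, 21.1 and 21.5 FPKM in BMDMs and 2.55, 2.64 and 2.85 in RAW264.7 cells. Tert, the catalytic chain of telomerase, and Cdk4, both named after their values were seen, were the other members past 4-fold in the line, with log2 fold changes of -5.45 and -2.20.

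Beyond the lists, the genes with the largest folds in favour of RAW264.7 cells were of mixed kinds. Car2, carbonic anhydrase 2, which supplies protons in osteoclasts, stood at 323, 308 and 303 FPKM in RAW264.7 cells and 0.07, 0.04 and 0.02 in BMDMs. Fxyd2, a regulator of the sodium pump, stood at 246, 227 and 244 FPKM in RAW264.7 cells and 0.06, 0.07 and 0.05 in BMDMs. Slc6a12, a transporter of betaine, had 3 counts in BMDMs and stood at 131, 135 and 138 FPKM in the line, a fold of 6797 (95% counting interval 2325 to 32961). Cldn11, a tight junction protein, stood at 89.3, 87.2 and 89.3 FPKM with 1 count in BMDMs, and Ndrg2 at 81.7, 79.5 and 84.9 with 2 counts. Htr1b, a serotonin receptor, stood at 32.3, 31.5 and 32.1 FPKM with 2 counts in BMDMs. Irx2, a homeobox factor, had no count in BMDMs and stood at 20, 16.7 and 19 FPKM in the line, at least 1001-fold higher. Nxf7 and Serinc2 were likewise at 0 in BMDMs, at 12, 13.3 and 11.6 and 9.69, 9.83 and 10.7 FPKM in the line.

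The largest folds in favour of BMDMs included receptors of the immunoglobulin and membrane-spanning families. Cd84 and Slamf7, receptors of the SLAM family, stood at 123, 121 and 121 FPKM in BMDMs and 0, 0 and 0 in RAW264.7 cells and at 45.7, 45.3 and 42.4 FPKM against 0 in every RAW264.7 library. Ms4a7, a membrane protein of macrophages, stood at 153, 153 and 147 FPKM, and Rnf150, a ring finger protein, at 12.1, 11.3 and 11.6, both against 0. Selenop, selenoprotein P, a carrier of selenium, stood at 1962, 1883 and 1899.6 FPKM in BMDMs and 0, 0.13 and 0 in RAW264.7 cells. Cd93, a lectin-like receptor, had 1 count in the line and stood at 146, 146 and 147 FPKM in BMDMs, a fold of 55389 (95% counting interval 9941 to 2187780).

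By level instead of fold, Tmsb4x, thymosin beta 4, which binds actin monomers, stood at 3069.8, 3050.0 and 3121 FPKM in BMDMs and 667, 646 and 627 in RAW264.7 cells. Ftl1, ferritin light chain, is among the most abundant in BMDMs but shares 50.9% of its windows and is uncertain. On the other side Rpl8, a ribosomal protein, stood at 1707, 1672 and 1666 FPKM in RAW264.7 cells and 239.9, 243 and 240.3 in BMDMs, and Eif5a, a translation factor, at 1137, 1119 and 1136 FPKM in RAW264.7 cells and 166, 175 and 175 in BMDMs. The other genes with the largest level in favour of the line, S100a4, Rps15, Pkm, Rpl36, Npm1, Mif and the pseudogenes Rps2-ps10 and Rps7-ps3, share 24.3% to 96.3% of their windows with other genes and are uncertain.

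Some genes were counted in one cell type alone, where a count of 0 is the same under any scaling. With 0 counts in all 3 libraries of one cell type and a mean of at least 1 FPKM in the other, 243 genes were counted in BMDMs alone, 153 of them protein coding, and 110 in RAW264.7 cells alone, 29 of them protein coding. Ms4a4a, a membrane protein of macrophages, stood at 172, 158 and 161 FPKM in BMDMs, Npy, neuropeptide Y, at 119, 124 and 122, and Fcrls, an Fc receptor-like protein of microglia, at 48.2, 48 and 48.6. In the line, Odf3l1 stood at 10.1, 12 and 11.6 FPKM, Fam13c at 9.9, 10 and 9.35 and Mfsd2a, a transporter of lysophospholipids, at 8.22, 9.77 and 9.47. Zic2, a zinc finger factor of the nervous system, stood at 5.3, 5.53 and 5.31 FPKM and Hoxb6, a homeobox factor, at 4.73, 5.36 and 4.53. Each of these 8 genes was at 0 in the other cell type, and their folds are at least 159.6.

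The same contrast was made in wild-type libraries given 100 ng/mL LPS for 4 h, 3 per cell type, which share no library with the resting ones. Those libraries are wild type by title, while their genotype tag reads knockout, and titles were used. There, 4686 of 13459 genes (34.8%) differed largely, 2474 (18.4%) higher in BMDMs and 2212 (16.4%) in the line. Of the 4052 resting differences 2773 (68.4%) were also large with LPS in the same direction, which is 59.2% of those with LPS, and 18 were opposite. Only 3440 of the 4052 were tested with LPS, and 3354 of these kept their sign. In the libraries labelled knockout with PBS by title, whose tag reads wild type, 3 per cell type, 3434 of 13810 genes (24.9%) differed largely, 2066 (15%) higher in BMDMs and 1368 (9.91%) in the line, and 2880 did so in the same direction as at rest in wild type, 71.1% of the resting list and 83.9% of theirs, with 10 opposite. Of the resting 4052, 3769 were tested there, and 3723 of these kept their sign. Without RAW264.7 knockout replicate 1, which was left out after its values were seen, large differences numbered 3684. Table and cell type were shared in all of these comparisons.

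Whether LPS alters the contrast was tested as an interaction, which passed an adjusted p of 0.05 for 8530 of 14819 genes (57.6%). Myc, Mmp9 and Lck were among the 18 genes that turned their direction with a large difference in both conditions. Myc stood at 48.6, 49.3 and 44.9 FPKM in RAW264.7 cells with LPS and at 1.83, 1.69 and 1.61 in BMDMs with LPS, whereas at rest it was higher in BMDMs. Mmp9, gelatinase B, stood at 10.1, 8.68 and 9.93 FPKM in the line with LPS and 0.48, 0.57 and 0.42 in BMDMs, against 1.56, 1.98 and 1.56 FPKM in BMDMs and 0.02, 0.02 and 0.04 in RAW264.7 cells at rest. In edgeR the log2 interaction was -9.15 for Myc (SE 0.133, Benjamini-Hochberg adjusted p = 1.38e-31) and -9.55 for Mmp9 (SE 0.328, adjusted p = 2.69e-22). Both genes were singled out because their direction turned in these same libraries. A low interaction p was built into that choice and gives no separate support. Lck, which was higher in the line at rest, stood at 2.59, 2.65 and 2.39 FPKM in RAW264.7 cells with LPS and at 12.72, 11.7 and 10.96 in BMDMs with LPS. Mycn stood at 136, 135 and 133 FPKM in the line with LPS and at 0, 0.03 and 0 in BMDMs, higher in the line as at rest. C1qb was higher in BMDMs in both conditions, at 1289, 1179 and 1172 FPKM in BMDMs with LPS and 0, 0.12 and 0 in the line.

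**Figure D4:**
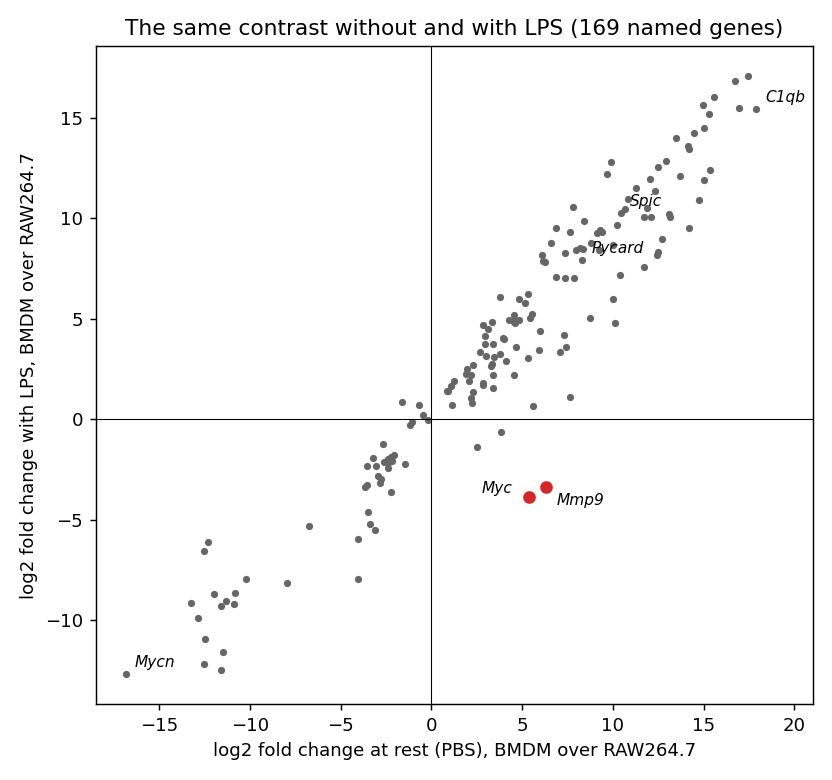
Log2 fold change of BMDM over RAW264.7 at rest (x axis) and with LPS (y axis) for 169 named genes, 3 libraries per group. Myc and Mmp9 (red) lie right of 0 at rest and under 0 with LPS, and most others keep their side.

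The tables differed in how reads fell on gene copies. Processed pseudogenes, which are copies of genes made through RNA, took 2.67, 2.63 and 2.62% of counts in RAW264.7 libraries and 0.333, 0.338 and 0.335% in BMDM libraries. The share varied within the line too, at 2.74, 1.87 and 1.9% in its knockout-labelled libraries given PBS. Of 887 processed pseudogenes tested 458 differed largely, 400 higher in the line and 58 in BMDMs, with a median log2 fold change of -1.82. Of 11615 protein-coding genes 3022 differed largely, 1983 higher in BMDMs and 1039 in the line, with a median of 0.12. Rps2, a ribosomal protein named after its values were seen, stood at 7.24, 6.87 and 6.53 FPKM in RAW264.7 cells and 309.7, 308 and 307 in BMDMs, while its copies summed to 1332, 1348 and 1272 FPKM in the line and 8.77, 9.05 and 9.23 in BMDMs. In 272 gene families with a named pseudogene copy, 125 had a larger share of counts on copies in all RAW264.7 libraries and 8 in all BMDM libraries.

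Gene length moved with the contrast as well. In 5 equal groups of protein-coding genes by exonic length, the median log2 fold change was -0.52 in the shortest (204 to 2545 bases), then -0.19, 0.09 and 0.36, and 0.69 in the longest (7631 to 123179 bases). Among the 8679 protein-coding genes with up to 1% of their windows in another gene, 2298 differed largely, 1515 higher in BMDMs and 783 in the line. The part of read assignment and of length in the lists was not tested.

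**Figure D5:**
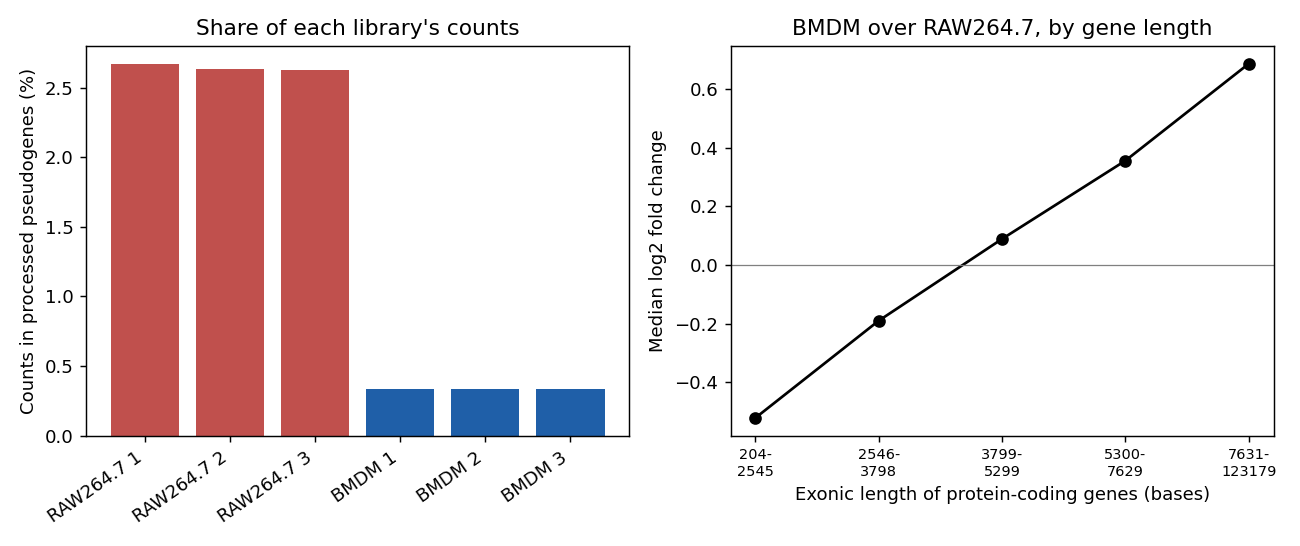
Left, share of each library's counts on processed pseudogenes, in percent, for the 6 resting libraries. Right, median log2 fold change of BMDM over RAW264.7 in 5 equal groups of protein-coding genes by exonic length in bases, rising from -0.52 to 0.69.

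Library indicators, meant to show RNA class and load, differed too, with 6 of 19 tested higher in BMDMs and 0 in the line (median 1.11). Ppia, a common reference gene, stood at 182, 182 and 179 FPKM in BMDMs and 9.05, 10.5 and 10.4 in RAW264.7 cells but shares 12.7% of its windows. Outside this list, Rn18s-rs5, a ribosomal RNA gene, stood at 2581, 3602 and 4028 FPKM in BMDMs and 444, 288 and 242 in RAW264.7 cells. It differed widely between libraries of the same cell type. Hprt, another common reference gene, stood at 241, 247 and 237 FPKM in RAW264.7 cells and 163, 159.6 and 163 in BMDMs, a log2 fold change of -0.17 that did not reach 1.5-fold. Of 9 genes listed because assays of the series turn on them, 7 were tested, and 3 were higher in BMDMs by the large-difference rule, Ccl2, Il1b and Olfml3 (log2 fold changes 7.44, 2.22 and 2.27). With library totals alone Il1b and Olfml3 fell under 4-fold. At the study's thresholds 3 genes of this list were higher in BMDMs and 3 in the line. Aifm1, the apoptosis-inducing factor, stood at 33.2, 32.6 and 32.8 FPKM in RAW264.7 cells and 9.07, 8.65 and 9.17 in BMDMs. Il6 and Nos2 had at most 9 counts in either group and were not tested.

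Both groups come from male mice. Of 4 tested, 3 were higher in BMDMs, Uty, Ddx3y and Kdm5d, and Eif2s3y differed by less than 4-fold. Uty stood at 4.53, 4.7 and 4.67 FPKM in BMDMs and 0.72, 0.68 and 0.52 in RAW264.7 cells and Ddx3y at 24.4, 24.5 and 25.7 FPKM in BMDMs and 5, 4.64 and 3.92 in RAW264.7 cells. Xist, the RNA that silences the second X chromosome in females, had 0 counts in all 6 libraries.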

How the data were processed

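The authors deposited a table per cell type with the count of reads on each gene and its FPKM. Genome build mm10 is named by the submitters' processing notes. By identifier, 52073 of the 56691 genes were found in GENCODE M21, a set on that build, but few have its start and end (1472 genes), so the gene models behind the counts may differ from those used here for gene class and shared sequence. Groups were taken from titles and library names, and tables were joined on the gene identifier. Members and lists were chosen with earlier results of these data known. Counts of the 6 libraries were scaled with TMM, filtered with filterByExpr and tested with the quasi-likelihood test of edgeR 4.0.16 under R 4.3.3, two-sided, with Benjamini-Hochberg adjustment over all genes tested. The comparisons with LPS, with knockout-labelled libraries and for the interaction used the same test. Shared sequence is the share of a gene's windows of 50 bases found in another gene of GENCODE M21, and genes with 10% or more are called uncertain.

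Named genes were, among large differences, the 10 largest folds per direction with a mean of at least 10 FPKM in the higher group, the 10 largest differences in mean FPKM per direction, the 4 largest folds per list with at least 1 FPKM, members of the macrophage core, colony-stimulating factor, study and sex chromosome lists, and the 10 highest genes per direction counted in one cell type alone. Predicted genes were left out. Genes outside this rule (B2m, Cd74, Myd88, C1ra, Gsdmd, Ngp, H2-Q10, the collagens and those marked in the text) were added with their values in view. Other settings tried were DESeq2 1.42.0, limma 3.58.1 on log2 FPKM with 0.1 or 1 added, other scalings and filters, thinned counts, a fit of all 24 libraries, glmTreat, the replicate block, each library left out, and 5 chosen after seeing the data.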

Additional observations from a re-analysis of the deposited data

Results flagged for a closer look

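The difference between BMDMs and RAW264.7 cells was tested for a change with LPS in the 12 wild-type libraries, and 18 genes turned their direction with a large difference in both conditions, Mmp9 and Myc among them. For Mmp9 the edgeR interaction was -9.55 on the log2 scale, with a log2 fold change of BMDM over RAW264.7 of 6.29 at rest and -3.34 with LPS. For Myc the interaction was -9.15, with 5.37 at rest and -3.84 with LPS. Both were picked because their direction turned in these libraries, so the interaction test gives no separate support. The cause was not tested.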

How the results depend on the processing

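Large differences at rest numbered 4052 and ran from 3028 (protein-coding genes alone, chosen after seeing the data) to 5664 (any count) in other settings, apart from limma on log2(FPKM + 1), which gave 1944, 809 of them higher in BMDMs, and protein-coding genes with little shared sequence (an alternative chosen after seeing the data). That last set tests fewer genes and gave 6107 past the study's thresholds and 2275 large, 1402 higher in BMDMs and 873 in RAW264.7 cells. Genes counted in one cell type alone numbered 353, but 87 with a mean of at least 5 FPKM and 670 where up to 3 counts were allowed, which follows from the stricter and looser minimum. With counts thinned to the smallest library total they numbered 399. With 1 library left out they ran from 382 to 445, and large differences from 4118 to 4419. Large differences with LPS ran from 4679 to 5629 in all settings tried, and genes past the interaction test from 8224 to 8538.

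With the replicate block (library numbers paired across cell types) 4055 genes differed largely, 2384 higher in BMDMs and 1671 in the line, and 4047 were shared with the unpaired fit. The numbers do not pair: residual correlations for the same number were 0.011, -0.001 and 0.0221. Scale moved the split. The share of large differences higher in BMDMs was 58.8%, against 46% with library totals alone, 44.6% and 41.6% with limma on log2(FPKM + 0.1) and log2(FPKM + 1), and 49.6% with folds centred on gene length (chosen after seeing the data). The median log2 fold change was then -0.37, -0.35, -0.23 and -0.39, against 0.05, and was -0.15 with upper-quartile scaling and 0.18 with a filter of any count. The cause was not tested.

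Counts of large differences in the lists moved as well. Of 702 such counts over 39 lists and 18 settings, 44 lay over 1.5-fold from the count as designed, in 25 lists, and 14 lists stayed within 1.5-fold of theirs. Of 172 named genes, 166 kept their direction and side of the study's threshold (1.5-fold) in each of the 18 settings that tested them, and none reversed. Of the 172, 6 were not tested in every setting. Of 158 named genes with a large difference, 133 kept it in every setting that tested them, and 152 did apart from limma on log2(FPKM + 1). Csf1r and Tyrobp missed 1.5-fold with library totals and both limma fits, Olfml3 and Kit with limma on log2(FPKM + 1), and Spi1 passed it in 4 settings. Acod1 was higher in the line at the study's thresholds as designed. It lost that call without RAW264.7 replicate 3 (log2 fold change -0.53, edgeR Benjamini-Hochberg adjusted p = 0.0111) and with glmTreat.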
